A study of Mus musculus with 4 samples.

Results

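The 10 genes described here are the Hippo pathway coactivators Yap1 and Wwtr1, the DNA-binding factors Tead1, Tead2 and Tead3 that carry them to chromatin, and 5 genes that are classic readouts of the pair, Ankrd1, Ctgf, Cyr61, Amotl2 and Axl. They were taken by name from the 23358 gene rows of the deposited tables, each matched exactly 1 row, and all 10 passed the filter on low counts. Their mRNA was sequenced in 2 clonally derived mouse cell lines described as progenitors of interstitial cells of Cajal, which pace the contractions of the gut. The line 2xSCS70 was derived from the gastric tunica muscularis, the muscle wall of the stomach, of H-2Kb-tsA58 mice, a strain whose H-2Kb promoter, which interferon induces, drives a thermolabile large T antigen of SV40, and was kept at 39.5 °C with no interferon-gamma. The line 2xSCS2F10 came from this layer of C57BL/6J mice and was kept at 37 °C with 5% chick embryo extract added. Both lines were grown in NeuroCult neural stem cell proliferation medium, and each is 1 clonal line represented by 2 libraries, so line, strain, temperature and chick embryo extract cannot be told apart. Nothing in the labels says that the 2 libraries of a line came from separate cultures, so p-values cover no more than the scatter of these libraries, which may be technical.

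YAP, the protein of Yap1, and TAZ, the protein of Wwtr1, are coactivators that have no DNA-binding domain of their own and act mainly through TEAD factors. The Hippo kinase cascade, MST kinases acting on LATS kinases, phosphorylates both and holds them in the cytoplasm, and several of their target genes feed back on the cascade. In the developing mouse gut, YAP and TAZ act in mesenchymal progenitors and hold back their differentiation into smooth muscle. Only mRNA was measured, so nothing here bears on phosphorylation, location or activity of the proteins.

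Counts assigned to genes totalled 48971264 and 44737008 in 2xSCS70 and 40319972 and 45098902 in 2xSCS2F10, replicate 1 before replicate 2. All counts were even, so 1 fragment stands as 2 counts, and the member with the fewest counts, Ankrd1 in 2xSCS2F10 replicate 1, still had 374. Levels between lines are given in CPM, counts brought to a common library size with TMM scaling. Levels of different genes are compared in RPKM as deposited, which divides by gene length and carries no TMM scaling. The 2xSCS2F10 libraries were less alike than those of 2xSCS70: 2.72% of the 14496 tested genes differed over 2-fold between the 2xSCS70 replicates, against 12.4% between those of 2xSCS2F10. For 5 proliferation markers (Mki67, Top2a, Ccnb1, Cdk1 and Aurkb) the summed level was 1420 and 1448 CPM in 2xSCS70 and 1071 and 275 CPM in 2xSCS2F10, so that 2xSCS2F10 replicate 2 stood apart. Of the defining markers of interstitial cells of Cajal, Kit had a single fragment in 2xSCS70 replicate 2 and 0 counts in the other 3 libraries, Ano1 stood at 2.29 and 2.55 CPM in 2xSCS70 and 29.8 and 18.4 CPM in 2xSCS2F10, and Etv1 stayed under 1 CPM in all 4 libraries. The progenitor markers Cd34, Cd44, Insr and Igf1r were present in all 4, at a summed 718 and 679 CPM in 2xSCS70 and 433 and 384 CPM in 2xSCS2F10, but did not move as 1 group. Cd34 and Cd44 were called higher in 2xSCS70 and Igf1r lower (log2 fold change -0.57, edgeR adjusted p = 0.0174), and Insr did not pass.

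Of the 10 genes, Ankrd1 and Tead2 were higher in 2xSCS70, Yap1, Wwtr1, Tead1, Tead3, Ctgf and Cyr61 were lower, and Amotl2 and Axl did not pass the test (edgeR quasi-likelihood test with Benjamini-Hochberg adjustment over all tested genes, threshold 0.05). The lines differed widely, so these 8 calls stand beside 40.6% of all 14496 tested genes called, 18.8% higher and 21.8% lower. In TMM-scaled CPM, the values of the lines did not overlap for 9 of the 10 genes, against 77.4% of all tested genes. The median log2 fold change, 2xSCS70 over 2xSCS2F10, was -0.66 over the 10 genes and 0.02 over all tested genes. In bulk libraries, fewer cells with a transcript and less of it per cell cannot be told apart. With limma on log2(RPKM + 1), which carries no TMM scaling, 3218 genes were called higher and 1828 lower, against 2727 and 3161 here. Wwtr1, Ctgf and Cyr61 were no longer called. The called share of all tested genes was 34.8% in that fit, 36.8% with limma on log2(RPKM + 0.1) and 36.0% with the replicate number as a block.

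**Figure D1:**
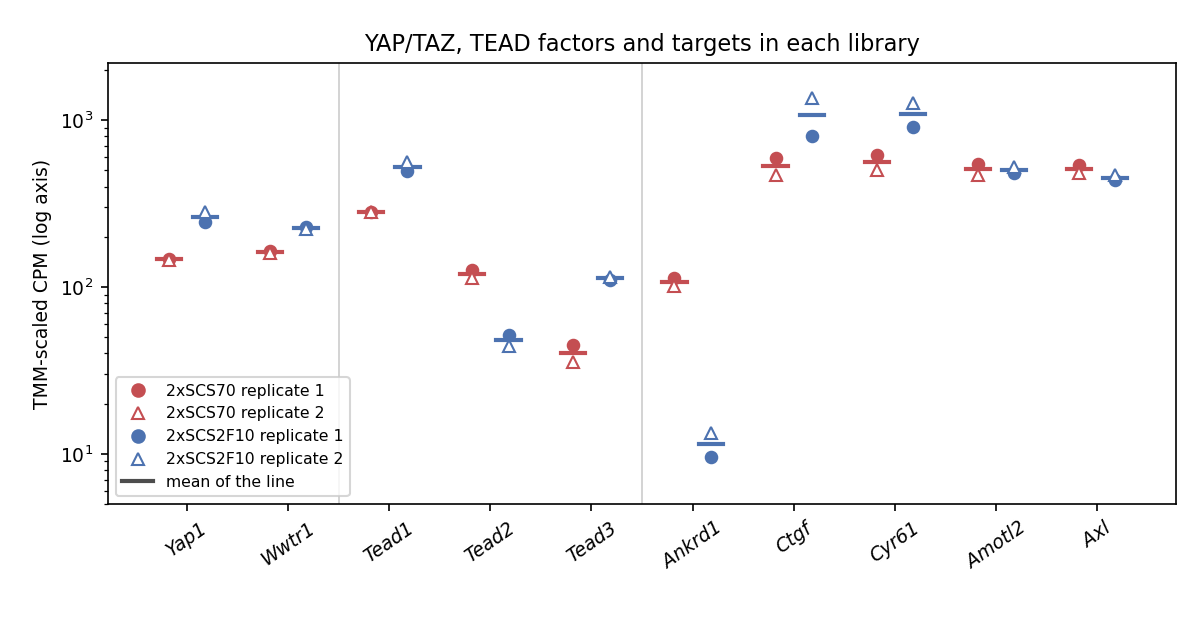
Level of each gene in each library, in TMM-scaled CPM on a log axis, with 2xSCS70 in red and 2xSCS2F10 in blue, replicate 1 as filled circles, replicate 2 as open triangles and a bar at the mean of each line. Ankrd1 stands at 113 and 102 CPM in 2xSCS70 and at 9.61 and 13.3 CPM in 2xSCS2F10, while the values of Amotl2 overlap.

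Both coactivators were lower in 2xSCS70, Yap1 more so than Wwtr1. Yap1 (chromosome 9, 7932001 to 8004596, mm10) had 148 and 146 CPM in 2xSCS70 and 245 and 281 CPM in 2xSCS2F10. The 2xSCS70 values were nearly equal, and both lay under the lower 2xSCS2F10 value. The gene was 1.79-fold lower in 2xSCS70, by edgeR (log2 fold change -0.84, SE 0.13, edgeR adjusted p = 0.00786). Wwtr1 (chromosome 3, 57455644 to 57575910) had 165 and 161 CPM in 2xSCS70 and 230 and 222 CPM in 2xSCS2F10. It was 1.39-fold lower, a smaller step between groups that again did not overlap in CPM (log2 fold change -0.47, SE 0.11, edgeR adjusted p = 0.0253). With the replicate number as a block the adjusted p of Wwtr1 was 0.0566, and on log2(RPKM + 1) values it was 0.374.

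Per length, the 2 coactivators were at similar levels in 2xSCS70 and Yap1 was ahead in 2xSCS2F10. In RPKM, Yap1 stood at 31.1 and 27.7 in 2xSCS70 and at 45.3 and 43.5 in 2xSCS2F10. Wwtr1 stood at 30.3 and 26.6 RPKM in 2xSCS70 and at 37.0 and 30.0 RPKM in 2xSCS2F10. Its values in the lines thus overlapped in RPKM, which they did not in TMM-scaled CPM. The ratio of Yap1 to Wwtr1 within a library was thus 1.03 and 1.04 in 2xSCS70 and 1.22 and 1.45 in 2xSCS2F10. The ratio was lower in both 2xSCS70 libraries, and an exact two-sided permutation test of 2 against 2 libraries cannot go below p = 0.333, so these ratios are given without a test. Over the summed RPKM of all 4 TEAD paralogs, the summed RPKM of both coactivators gave ratios of 0.657 and 0.715 in 2xSCS70 and 0.870 and 0.924 in 2xSCS2F10.

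The TEAD factors moved in opposite directions. Tead1 (chromosome 7, 112679320 to 112906805) had 281 and 281 CPM in 2xSCS70 and 492 and 558 CPM in 2xSCS2F10, and was 1.87-fold lower in 2xSCS70 by the same test (log2 fold change -0.90, SE 0.13, edgeR adjusted p = 0.00692). Tead3 (chromosome 17, 28331673 to 28350805) had 44.6 and 35.6 CPM in 2xSCS70 and 111 and 115 CPM in 2xSCS2F10. It was 2.82-fold lower, the larger of these 2 decreases (log2 fold change -1.49, SE 0.16, edgeR adjusted p = 0.0031). Tead2 (chromosome 7, 45215753 to 45233619), the family member best known from early embryos and neural progenitors, had 127 and 113 CPM in 2xSCS70 and 51.7 and 44.2 CPM in 2xSCS2F10. Tead2 was 2.50-fold higher (log2 fold change 1.32, SE 0.14, edgeR adjusted p = 0.00336), with every 2xSCS70 value more than the 2xSCS2F10 ones. Tead4, the remaining paralog, was not among the 10 genes. It had 10.5 and 6.82 CPM in 2xSCS70 and 36.6 and 24.2 CPM in 2xSCS2F10, and was 3.51-fold lower (SE 0.31 on the log2 scale, edgeR adjusted p = 0.0109).

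Per length, the leading TEAD transcript was a different one in each line. In CPM, which is not divided by length, Tead1 was above Tead2 in both lines, at 281 and 281 against 127 and 113 CPM in 2xSCS70. Tead2 made up 56.4% and 55.9% of the summed RPKM of the 4 paralogs in the 2xSCS70 libraries, and averaged 18.5% ± 2.11 in the 2xSCS2F10 libraries (SD, n = 2). Tead1 made up 26.5% and 29.5% in 2xSCS70 and 40.3% and 45.5% in 2xSCS2F10, where it led. Tead3 made up 14.0% and 12.3% in 2xSCS70 and 30.0% and 31.2% in 2xSCS2F10, so that it came after Tead1 there and after both Tead2 and Tead1 in 2xSCS70. Tead4 was last in all 4 libraries, at 3.20% and 2.31% in 2xSCS70 and 9.70% and 6.40% in 2xSCS2F10. These shares do not depend on the scaling between libraries, but they do depend on the gene lengths used, 9962 bases for Tead1 and 2115 for Tead2. Summed over the 4 paralogs, TMM-scaled CPM per kilobase stood at 107 and 95.9 in 2xSCS70 and at 123 in both libraries of 2xSCS2F10. The sums in RPKM overlapped, at 93.3 and 75.8 in 2xSCS70 and 94.6 and 79.6 in 2xSCS2F10, so the order of the totals depends on the scaling. Of 50-base windows of the annotated transcripts, 0.181% for Tead1, 0.0198% for Tead2 and 0.144% for Tead3 also occur in transcripts of another gene, so little of the sequence is shared with a paralog.

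**Figure D2:**
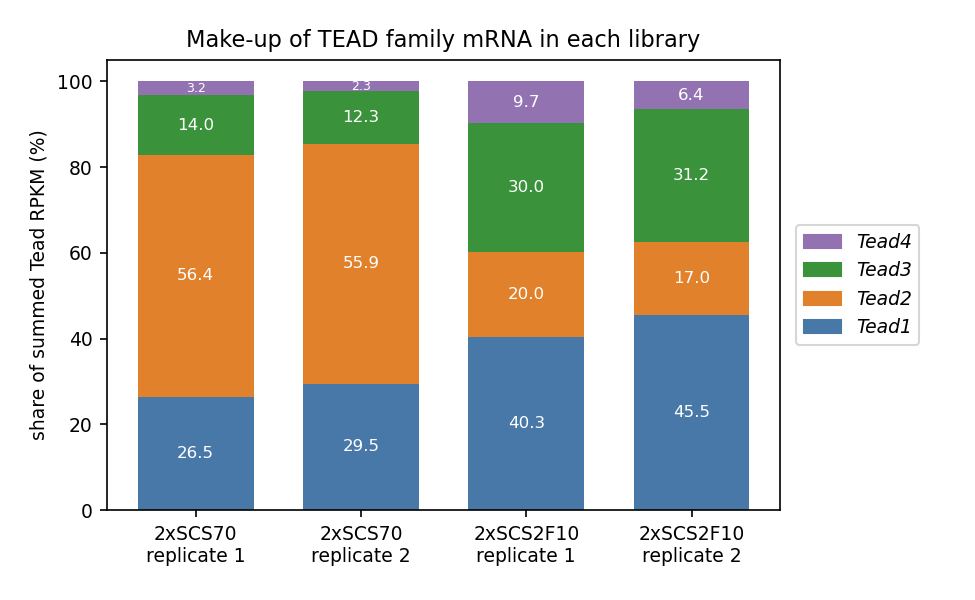
Share of each Tead paralog in the summed RPKM of all 4 paralogs (vertical axis, in percent), with 1 bar per library. Tead2 holds 56.4% and 55.9% in the 2xSCS70 libraries, and Tead1 holds 40.3% and 45.5% in the 2xSCS2F10 libraries.

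The target genes are shown first by their promoters, since TEAD factors are known to bind the motif GGAATG. The windows run from 250 bases before to 50 bases after the annotated start (RefSeq, GRCm38.p6), are written 5′ to 3′ on the strand of the gene, and have the motif in capitals, as GGAATG or, where it lies on the other strand, as CATTCC. The windows are chr19:36119795-36120094 for Ankrd1, chr3:145649936-145650235 for Cyr61 and chr7:25788684-25788983 for Axl, all on the minus strand, and chr9:102717554-102717853 for Amotl2 on the plus strand.
Ankrd1: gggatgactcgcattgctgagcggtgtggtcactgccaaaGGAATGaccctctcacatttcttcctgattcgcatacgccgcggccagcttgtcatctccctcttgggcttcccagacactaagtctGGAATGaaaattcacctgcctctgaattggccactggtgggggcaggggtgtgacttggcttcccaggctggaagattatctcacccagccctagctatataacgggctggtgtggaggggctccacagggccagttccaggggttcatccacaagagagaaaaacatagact
Cyr61: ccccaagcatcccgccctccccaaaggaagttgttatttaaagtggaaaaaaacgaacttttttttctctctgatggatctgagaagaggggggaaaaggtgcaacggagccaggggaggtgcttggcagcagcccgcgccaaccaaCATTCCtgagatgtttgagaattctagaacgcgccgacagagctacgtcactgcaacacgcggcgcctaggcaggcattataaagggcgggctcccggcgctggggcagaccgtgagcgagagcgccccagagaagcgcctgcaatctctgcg
Amotl2: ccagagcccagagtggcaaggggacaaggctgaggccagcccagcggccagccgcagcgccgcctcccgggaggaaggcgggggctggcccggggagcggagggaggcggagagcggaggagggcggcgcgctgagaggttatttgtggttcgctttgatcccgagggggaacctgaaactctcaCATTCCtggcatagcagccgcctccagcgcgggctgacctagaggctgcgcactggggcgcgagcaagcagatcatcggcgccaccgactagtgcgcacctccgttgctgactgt
Axl: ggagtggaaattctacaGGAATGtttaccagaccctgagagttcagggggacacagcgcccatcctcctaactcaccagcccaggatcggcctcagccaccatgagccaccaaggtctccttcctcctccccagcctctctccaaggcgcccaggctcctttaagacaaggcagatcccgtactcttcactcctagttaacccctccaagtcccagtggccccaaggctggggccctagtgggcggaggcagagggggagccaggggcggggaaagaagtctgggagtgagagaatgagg
The Ankrd1 window holds the motif at 2 places, whose first bases lie 210 and 123 bases before the start, and the other 3 windows hold it once, 103 bases before the start in Cyr61, 65 in Amotl2 and 233 in Axl. The genes of the coactivators themselves also hold it, 141 bases before the start in Yap1 and 136 before the first annotated start of Wwtr1, shown here with 10 bases on each side.
Yap1: ggagtctgcaGGAATGtagcgacgcg
Wwtr1: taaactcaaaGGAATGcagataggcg
Of the 10 genes, 8 had a promoter in the RefSeq table (not Tead1 and Ctgf), with 11 windows in all, and 7 of the 8 held the motif on either strand in at least 1 window, all but Tead2. Among all 27025 genes of the table, 16.6% held it in at least 1 window, and 1.57% held it at 2 or more places in a window, as Ankrd1 and 1 of the Tead3 windows did. The CArG box, the motif of serum response factor, was in 0 of the 11 windows and in 1.63% of all windows. The motif was found in 3 of 11 further targets with a promoter in the table (27.3%) and in 8 of 20 upstream Hippo genes, lists described further on. A match is a description of letters and no measure of binding in these cells.

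**Figure D3:**
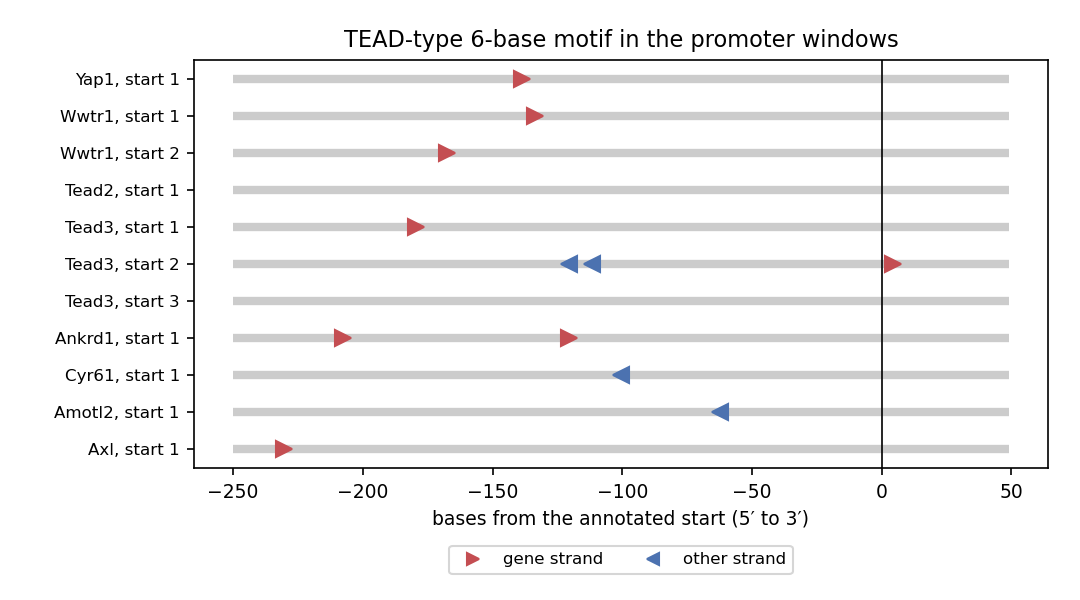
Places of the motif GGAATG in the 11 promoter windows of 8 genes, in bases from the annotated start, with triangles pointing right for the strand of the gene and left for the other strand. Ankrd1 has it 210 and 123 bases before the start, and the Tead2 window has none.

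Ankrd1, which encodes a stretch-responsive ankyrin repeat protein of muscle sarcomeres and nuclei, had the largest change of the 10 genes. Ankrd1 (chromosome 19, 36111965 to 36119844) had 113 and 102 CPM in 2xSCS70 and 9.61 and 13.3 CPM in 2xSCS2F10. The lines were far apart and their values did not overlap. Ankrd1 was 9.36-fold higher in 2xSCS70 (log2 fold change 3.23, SE 0.21, edgeR adjusted p = 0.000967), and it ranked 486 among all tested genes by positive fold change. It stayed called with any 1 of the 4 libraries left out, at an edgeR adjusted p of at most 0.0276, which held for no other of the 10 genes.

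The secreted CCN proteins CTGF and CYR61, matricellular proteins that bind integrins, were encoded by the most abundant transcripts of the 10 and went the other way. Ctgf (also called Ccn2; chromosome 10, 24595442 to 24598682) had 593 and 467 CPM in 2xSCS70 and 801 and 1357 CPM in 2xSCS2F10. The 2xSCS2F10 libraries differed 1.69-fold from each other, with replicate 2 high, and both lay over the 2xSCS70 values. Ctgf was 2.04-fold lower in 2xSCS70, close to the threshold (log2 fold change -1.03, SE 0.29, edgeR adjusted p = 0.0453). Its log2 fold change was -1.37 without 2xSCS2F10 replicate 1 and -0.60 without its replicate 2, which are 2.58-fold and 1.51-fold lower levels in 2xSCS70. The call was lost when replicate number entered as a block (adjusted p = 0.057), under upper quartile scaling (0.0527) and on log2(RPKM + 1) values (0.105). The exons of Ctgf share 23.2% of their bases with the transcript Gm15270 on the other strand, and those of Yap1 share 1.25% with Gm20416 in the same way; reads of such a pair cannot be told apart in a library kit that does not mark strand.

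Cyr61 (also called Ccn1; chromosome 3, 145646971 to 145649985) had 620 and 505 CPM in 2xSCS70 and 915 and 1262 CPM in 2xSCS2F10. It followed the same order of libraries as Ctgf, and the lines did not overlap. Cyr61 was 1.94-fold lower in 2xSCS70 by edgeR (log2 fold change -0.95, SE 0.22, edgeR adjusted p = 0.0241), with an adjusted p of 0.0981 on log2(RPKM + 1) values. By RPKM, Cyr61 ranked 132 of 23358 rows in 2xSCS70 and 82 in 2xSCS2F10, and Ctgf ranked 182 in 2xSCS70 and 108 in 2xSCS2F10. The ratio of Ctgf to Cyr61 in RPKM stayed close, at 0.808 and 0.781 in 2xSCS70 and 0.739 and 0.908 in 2xSCS2F10. The ratio of Ctgf to Ankrd1 in RPKM did not, at 3.86 and 3.37 in 2xSCS70 and 61.3 and 74.8 in 2xSCS2F10.

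Amotl2 and Axl were abundant in both lines and did not pass the test. Amotl2 (chromosome 9, 102717804 to 102733417), a target that encodes an angiomotin binding and restraining YAP, had 545 and 472 CPM in 2xSCS70 and 483 and 527 CPM in 2xSCS2F10. The values overlapped, and the log2 fold change was 0.01 with a 95% interval of -0.35 to 0.37 (edgeR adjusted p = 0.961), its sign turning under RLE scaling. Axl (chromosome 7, 25756500 to 25788733), a receptor tyrosine kinase of the TAM family, had 539 and 483 CPM in 2xSCS70 and 438 and 467 CPM in 2xSCS2F10. The 2xSCS70 values lay just over those of 2xSCS2F10, with a log2 fold change of 0.18 and a 95% interval of -0.16 to 0.51 (edgeR adjusted p = 0.32). Both intervals leave out the estimate for Ctgf, a log2 fold change of -1.03. The 95% interval of Ctgf, -1.78 to -0.27, overlaps that of Amotl2 but not that of Axl. A p over the threshold does not show that the lines were alike.

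**Figure D4:**
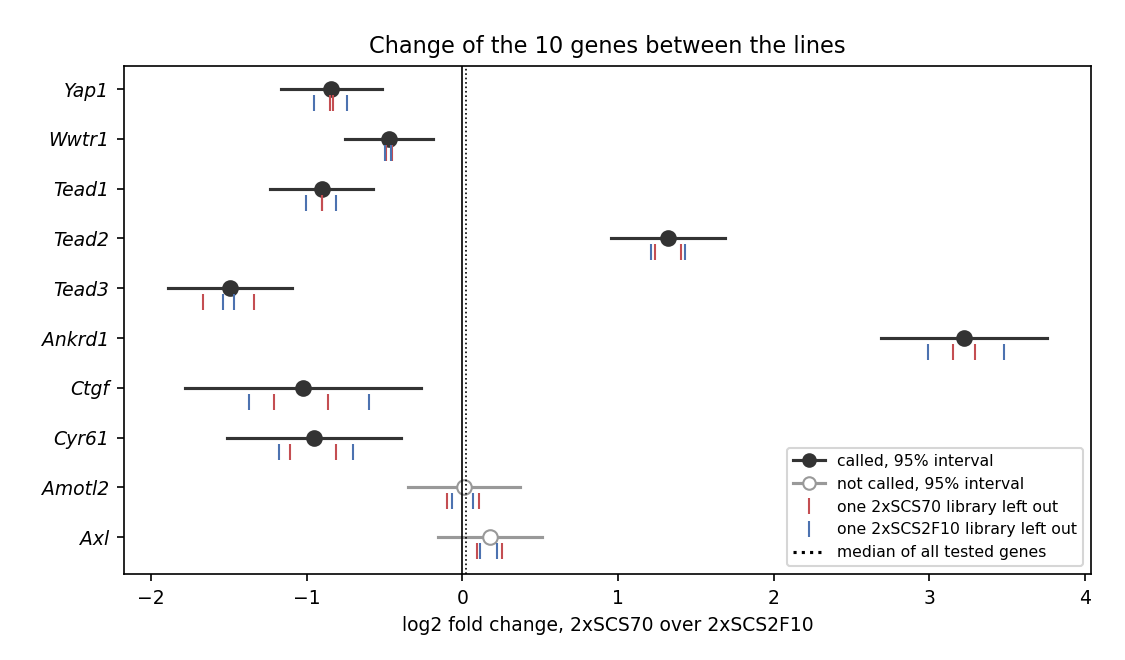
Log2 fold change of each gene, 2xSCS70 over 2xSCS2F10 (horizontal axis), with its 95% interval, filled where called. Ticks show the value with 1 library left out, red for a 2xSCS70 and blue for a 2xSCS2F10 library, and the dotted line marks the median of all tested genes, 0.02; Ankrd1 lies at 3.23 and Tead3 at -1.49.

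The calls changed most when a 2xSCS70 library was left out, which leaves the spread to the 2xSCS2F10 pair. Without 2xSCS70 replicate 1 only Ankrd1 and Tead3 of the 10 were called, beside 5.86% of all tested genes, and without 2xSCS70 replicate 2 only Ankrd1 was, beside 6.13%. Without 2xSCS2F10 replicate 1, 8 of the 10 were called beside 66.0% of all genes, and without its replicate 2, 8 beside 61.8%. The direction of the 8 called genes was the same in all 4 of these fits. Within a line, replicate 2 was lower than replicate 1 for 9 of the 10 genes in 2xSCS70, by up to 1.27-fold for Ctgf, and Tead1 was the exception. In 2xSCS2F10, replicate 2 was higher for 8 of the 10 genes, and Wwtr1 and Tead2 were the exceptions. Over all 14496 tested genes, replicate 2 was higher for 7019 in 2xSCS70 and for 7216 in 2xSCS2F10. Only Ctgf in 2xSCS2F10 differed over 1.5-fold between replicates, against 25.5% of all tested genes in that line.

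Upstream of the coactivators, 24 genes of the Hippo cascade and its regulators had a row and 23 were tested, of which 2 were higher and 8 lower in 2xSCS70. That is 43.5% called, beside 40.6% of all tested genes, and the median change was -0.22 on the log2 scale. The kinase Lats2, which phosphorylates YAP and is itself a YAP target, had 114 and 111 CPM in 2xSCS70 and 268 and 261 CPM in 2xSCS2F10, and was 2.35-fold lower (edgeR adjusted p = 0.0021). Lats1, its paralog, did not pass (log2 fold change -0.05, edgeR adjusted p = 0.744). The upstream kinase MST1, encoded by Stk4, was 2.12-fold lower, at 78.9 and 79.4 CPM in 2xSCS70 and 159 and 176 CPM in 2xSCS2F10 (edgeR adjusted p = 0.00343), and Stk3, which encodes MST2, did not pass (edgeR adjusted p = 0.233). Wwc2, a scaffold related to KIBRA, was 2.26-fold lower, at 209 and 192 CPM in 2xSCS70 and 443 and 463 CPM in 2xSCS2F10 (edgeR adjusted p = 0.00309).

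The atypical cadherins of the FAT family, large adhesion proteins whose fly relative feeds into the cascade, went in opposite directions. Fat4 had 294 and 319 CPM in 2xSCS70 and 50.4 and 57.1 CPM in 2xSCS2F10, and was 5.70-fold higher in 2xSCS70 (SE 0.13 on the log2 scale, edgeR adjusted p = 0.000657). Fat1 had 611 and 637 CPM in 2xSCS70 and 1476 and 1870 CPM in 2xSCS2F10, and was 2.68-fold lower (SE 0.18 on the log2 scale, edgeR adjusted p = 0.00484). Dchs1, the cadherin that pairs with FAT4, was the untested gene of the list, with 4 counts in each 2xSCS70 library and 0 in both 2xSCS2F10 libraries. Map4k4, a kinase that can act on LATS beside the MST kinases, was 1.77-fold higher, at 846 and 830 CPM in 2xSCS70 and 427 and 521 CPM in 2xSCS2F10 (edgeR adjusted p = 0.0141). Of the 10 called genes of this list, Fat4 alone was called without 2xSCS70 replicate 1 and also without its replicate 2.

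Of 17 further targets, taken from a signature described in human tumours, 3 were higher and 10 lower in 2xSCS70, a called share of 76.5% beside 40.6% of all tested genes. Their median log2 fold change was -1.23. Crim1, a membrane protein that binds bone morphogenetic proteins, had 88.3 and 80.2 CPM in 2xSCS70 and 445 and 502 CPM in 2xSCS2F10, and was 5.63-fold lower (edgeR adjusted p = 0.0007). Gadd45a, a stress-induced growth arrest gene, was 4.33-fold lower, at 15.7 and 17.3 CPM in 2xSCS70 and 65.1 and 78.1 CPM in 2xSCS2F10 (edgeR adjusted p = 0.00133). Dock5, an exchange factor for Rac, was 3.41-fold lower (edgeR adjusted p = 0.00171), and Lats2 belongs to this list too.

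The higher further targets, like Ankrd1, ran against the larger share. Foxf2, a forkhead factor of gut mesenchyme, had 43.9 and 37.3 CPM in 2xSCS70 and 15.7 and 20.5 CPM in 2xSCS2F10, and was 2.24-fold higher (edgeR adjusted p = 0.00961). Arhgef17 was 1.60-fold higher (edgeR adjusted p = 0.0141), and the growth factor Tgfb2 was 1.29-fold higher (edgeR adjusted p = 0.0455). The call of Tgfb2 ended with the replicate block (adjusted p = 0.0976), under RLE scaling (0.0535) and without the filter on low counts (0.0633), which leaves 2 higher further targets in each of these fits. Among the lower ones, F3, Igfbp3, Fjx1 and Nt5e, named after their values were seen, differed over 2-fold between the 2xSCS2F10 libraries, each with replicate 2 high. Igfbp3 was the widest of them, at 1.09 and 1.36 CPM in 2xSCS70 and 42.7 and 268 CPM in 2xSCS2F10. Without 2xSCS70 replicate 1 the called genes of this list were Crim1 and Gadd45a, and without its replicate 2 they were Crim1, Dock5, Gadd45a and Rbms3.

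**Figure D5:**
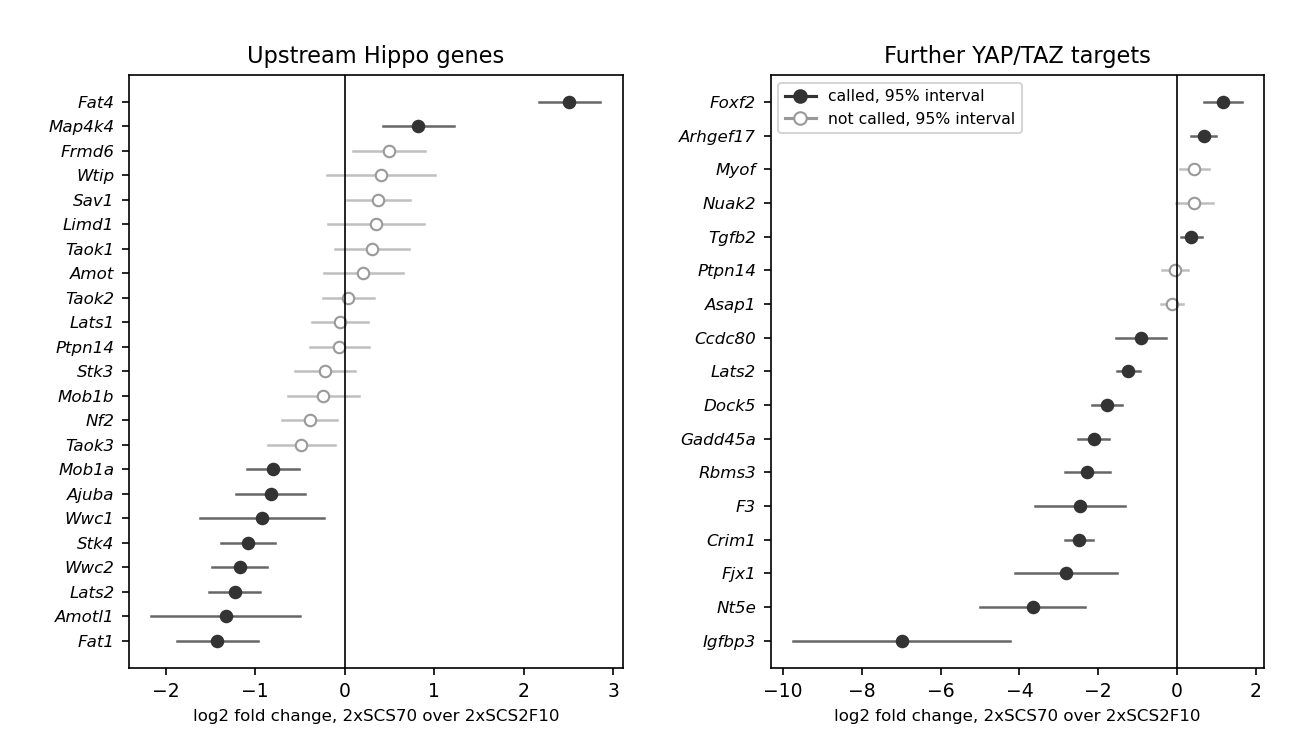
Log2 fold change, 2xSCS70 over 2xSCS2F10, with its 95% interval for 23 tested upstream Hippo genes (left) and 17 further targets (right), filled where called. Fat4 stands highest on the left, and 10 further targets are called lower against 3 called higher on the right.

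Other partners of the TEAD factors were measured as well. Vgll3, a vestigial-like protein that competes with YAP for TEAD factors, had 188 and 185 CPM in 2xSCS70 and 360 and 436 CPM in 2xSCS2F10, and was 2.13-fold lower (edgeR adjusted p = 0.00547). Vgll4, which represses TEAD targets, had 32.9 and 32.8 CPM in 2xSCS70 and 21.4 and 31.1 CPM in 2xSCS2F10 and did not pass (edgeR adjusted p = 0.261). Vgll1 had 0 counts in all 4 libraries, where 3 fragments correspond to 0.109 to 0.157 CPM, and Vgll2 was under 1 CPM and untested.

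Relatives of the target genes did not follow them as families. Among the TAM receptors, Axl made up 90.6% and 90.0% of the summed RPKM of Axl, Mertk and Tyro3 in 2xSCS70 and 90.2% and 86.7% in 2xSCS2F10. Mertk was 6.72-fold lower, at 0.798 and 1.07 CPM in 2xSCS70 and 7.19 and 5.35 CPM in 2xSCS2F10 (edgeR adjusted p = 0.00389), and Tyro3 did not pass (edgeR adjusted p = 0.832). The ligands of these receptors did not pass either, with a log2 fold change of 0.51 for Gas6 (edgeR adjusted p = 0.0618) and 0.54 for Pros1 (edgeR adjusted p = 0.13). With limma on log2(RPKM + 0.1) both were called, at adjusted p = 0.0483 for Gas6 and 0.0288 for Pros1. Among the other CCN genes, Wisp2 had 28.5 and 24.2 CPM in 2xSCS70 and 0.771 and 0.472 CPM in 2xSCS2F10, resting on 30 and 18 counts in 2xSCS2F10, and was 42.2-fold higher (edgeR adjusted p = 0.000685), opposite to Ctgf and Cyr61. Wisp1 had 581 and 547 CPM in 2xSCS70 and 520 and 1106 CPM in 2xSCS2F10 and did not pass (edgeR adjusted p = 0.29), and Nov stayed under 1 CPM in all 4 libraries. Wisp2 was also called without either 2xSCS70 library, whereas Tead4, Vgll3 and Mertk were not. Among angiomotins, Amotl2 made up 85.9% and 84.2% of the summed RPKM of Amotl2, Amot and Amotl1 in 2xSCS70 and 78.8% and 71.1% in 2xSCS2F10. Amotl1 had 125 and 121 CPM in 2xSCS70 and 211 and 406 CPM in 2xSCS2F10, and was 2.52-fold lower (edgeR adjusted p = 0.0283). Amot did not pass.

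Markers of other cell types moved between the lines beside these genes. Smooth muscle markers (8 genes, among them Acta2 and Tagln) summed to 840 and 778 CPM in 2xSCS70 and to 5440 and 9690 CPM in 2xSCS2F10, and 7 of 8 were called lower. Their sum was highest in 2xSCS2F10 replicate 2, the library that also had the most Ctgf and Cyr61. Mesothelial markers (6 genes, among them Upk3b and Wt1) summed to 90.7 and 80.9 CPM in 2xSCS70 and to 3413 and 3916 CPM in 2xSCS2F10, and 6 of 6 were called lower. Over all tested genes, 21.8% were called lower. Of the 5 proliferation markers none passed the edgeR test, and all 5 were lower in 2xSCS2F10 replicate 2 than in replicate 1, by a median of 4.03-fold over the genes. Endothelial markers summed to 4.86 and 4.11 CPM in 2xSCS70 and 5.80 and 9.34 CPM in 2xSCS2F10, and 4 glial and neuronal markers to at most 2.00 CPM in any library. Of the immune markers, Emr1 had 0 counts in all 4 libraries, Ptprc had 3 fragments in 2xSCS2F10 replicate 1 and Itgam 1 fragment in 2xSCS70 replicate 2, and Cd68 reached 3.90 CPM at most. Of 3 tested endothelial markers, 1 was called higher and 1 lower in 2xSCS70. For the glial and neuronal markers 1 of 3 tested was called higher, and for the immune markers 1 of 1. The part of smooth muscle, mesothelial and proliferation genes in the levels of the 10 genes was not tested.

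The genes whose pattern was most like those of the 3 classic secreted or stretch targets were found by the Euclidean distance of mean-centred log2 CPM over the 4 libraries, among 9194 genes that averaged 10 CPM or more. Nearest to Ctgf were Zfp36 (distance 0.07), Plaur (0.12) and Gfod1 (0.14). Nearest to Cyr61 were Cst3 (0.07), Fam65a (0.10) and Plxnb2 (0.11). Nearest to Ankrd1 were Pcbp3 (0.22), Itga11 (0.24) and Klhl30 (0.26). With 4 libraries of 2 lines, such a distance reads the line difference and the spread within each pair.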

How the data were processed

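The authors deposited raw counts per gene and RPKM for each library, per the file headers. Libraries were made with a TruSeq mRNA kit, per the labels' protocols, and the submitters' processing notes name TopHat2 2.0.6, Bowtie, HTSeq and the build mm10. The annotation behind the counts was not given in the sources used here. In replicate 1 tables, 25 gene names were spreadsheet dates and were restored from the rows with the same coordinates in replicate 2. The comparison between lines used the quasi-likelihood test of edgeR 4.0.16 (R 4.3.3, deposited counts unaltered, TMM scaling, filterByExpr, Benjamini-Hochberg adjustment over 14496 tested genes). The test was also run on simulated data, where all genes had the same dispersion and few were changed, unlike here. Changes are 2xSCS70 minus 2xSCS2F10. The SE was taken as the size of the log2 fold change over the root of F, and intervals are 95% with the degrees of freedom of the test. Log2 CPM used a prior count of 2. Alternatives were a replicate block, upper quartile or RLE scaling, an unfiltered table, halved counts, DESeq2 1.42.0, limma 3.58.1 on log2(RPKM + 1) and log2(RPKM + 0.1), and each library left out. Overlaps and shared windows came from GENCODE on the same build. The 2 libraries of a line differed by more than sampling noise (chi-square per degree of freedom 37.2 in 2xSCS70 and 88.6 in 2xSCS2F10). The 10 genes and the lists were chosen with earlier results of these data known. The text names all 10 genes, up to 4 called genes each way per list by adjusted p, and whole lists of 5 genes or fewer. It also names the 3 genes nearest to 3 targets. Lats1, Stk3 and Dchs1 were added as paralogs or partners, and the values of Amot and Amotl1 after they were seen. Protein sequences were not used here. Floors cover counting error only. Figures were drawn with matplotlib 3.10.9 in Python 3.11.15.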

Additional observations from a re-analysis of the deposited data

How the results depend on the processing

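The counts of calls moved most when a library was left out, since 3 libraries leave the spread to 1 pair and the lone library is taken to vary like the other line. Over these 4 fits, 850 to 9567 genes were called, 1 to 8 of the 10 described genes, 1 to 16 upstream Hippo genes and 2 to 15 further targets. On log2(RPKM + 1) and log2(RPKM + 0.1) values with limma, 5 of the 10 genes were called in each case (Ankrd1, Tead1, Tead2, Tead3 and Yap1). The median log2 fold change of all genes shifted by 0.12 and 0.22. Both fits used the deposited RPKM without TMM scaling. The TMM factors of the main fit were 1.13 and 1.09 in 2xSCS70 and 0.966 and 0.845 in 2xSCS2F10. The part of this scaling in the shift was not tested. Amotl2 was the only one of the 10 whose sign turned, to -0.0061 under RLE scaling and with DESeq2 and between -0.10 and 0.11 over the fits with 1 library left out, never near the threshold. With the replicate number as a block, 5222 genes and 6 of the 10 genes were called, without Wwtr1 and Ctgf (adjusted p 0.0566 and 0.057). No label says that a number marks a shared culture, day or batch, and the correlation of replicate differences between the lines was 0.05. The number does go with how the tables were written, since the altered gene names are in the replicate 1 tables of both lines and in no replicate 2 table. It also goes with the sample records, which are numbered next to each other for replicate 1 of both lines. Those of replicate 2 are likewise adjoining but numbered much later. A batch that goes with the replicate number is thus possible and was not tested. Of 120 values of single genes under the alternatives, 94 kept direction and side of the threshold, 22 lost the call and 4 turned sign.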
